A study of Mus musculus with 26 samples.

Results

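Rod photoreceptors were sorted from retinas of rd10 mice that had received GSK2879552, an irreversible inhibitor of the histone demethylase LSD1, and their RNA was compared with that of rods from saline-injected rd10 mice. The comparison rested on 4 of the 26 sequenced libraries, 2 controls and 2 from treated mice, chosen by their labels. All 4 came from rd10 mice crossed with the line B6.Cg-Tg(Nrl-EGFP)1Asw/J, in which EGFP is driven by the promoter of the rod gene Nrl. The study reports that GSK2879552 protected the retinas of this crossed line as it did those of rd10 mice. Control mice were injected with saline and treated mice with GSK2879552, intraperitoneally and daily from PN9 to PN24, and rods were collected by FACS on EGFP at PN24. No wild type rods and no treated mice without the rd10 mutation were among these libraries, so all levels are those of mutant rods. The other 22 libraries were whole retinas from 4 further inhibitor experiments and were used where a value in rods was set against that in retina.

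LSD1, encoded by Kdm1a, removes methyl groups from histone tails at promoters and enhancers and works in complexes with CoREST proteins and histone deacetylases, through which it keeps many genes silent. In the retina it acts during the period when rod progenitors shut down progenitor and alternative cell fates and open the genes of phototransduction. The rd10 allele is a missense mutation of Pde6b, the beta subunit of the rod phosphodiesterase that breaks down cGMP after light. Rods that carry it die within the first postnatal weeks, and cones, Müller glia and microglia react to their loss. The question of the comparison was which genes of the rods themselves differed when LSD1 had been inhibited over this period.

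The 2 control libraries held 7289460 and 17371857 counts over genes and the 2 GSK2879552 libraries 19864491 and 9724672, so that 3 counts corresponded to between 0.151 and 0.412 CPM, counts scaled to a library of 1000000, in a single library. Levels below are CPM with edgeR's TMM factors, in the order control 1, control 2, GSK2879552 1 and GSK2879552 2. For single rod libraries the factors come from the 4 rod libraries. Retina levels, and medians and ratios of rods beside retinas, use factors from all 26 libraries. Levels are not divided by gene length and serve to compare libraries, not genes. Correlations of log levels between libraries ran from 0.954 to 0.961, and the 2 controls were no closer to each other (0.958) than control 2 was to GSK2879552 1 (0.959). Counts of each pair differed by more than sampling noise, so no library was a copy of another. The female transcript Xist was at 26.8, 0, 9.72 and 21.9 CPM while 4 Y-linked genes had counts in all 4 libraries, so that the make-up by sex differed between libraries of a group. The number of animals behind each library was not given in the sources used here.

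The label of sorted rods was borne out by markers. Summed over 7 rod genes, the level was 3.60 times the median of the 12 control retinas, whereas Müller glia markers were 25.0 times, microglia markers 6.61 times, amacrine markers 5.66 times, bipolar markers 3.89 times and ganglion cell markers 223 times lower. Pou4f2 of ganglion cells, Onecut1 of horizontal cells, Rpe65 and Tyr of the pigment epithelium and Cryaa and Crybb2 of the lens were at 0 counts in all 4 libraries. Cone markers were not depleted as a sum, which was 1.36 times the retina median and carried most by Opn1sw at 2.15 times. Gnat2 (1.34 times) and Opn1mw (1.13) were above the retina median as well, and Arr3 (0.802), Pde6c (0.745) and Pde6h (0.698) below it. The microglia sum was carried most by Csf1r, at 0.351 times the retina median. The sources used here name different library kits for rods, so levels of rods and retinas are set side by side as a description only.

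**Figure D1:**
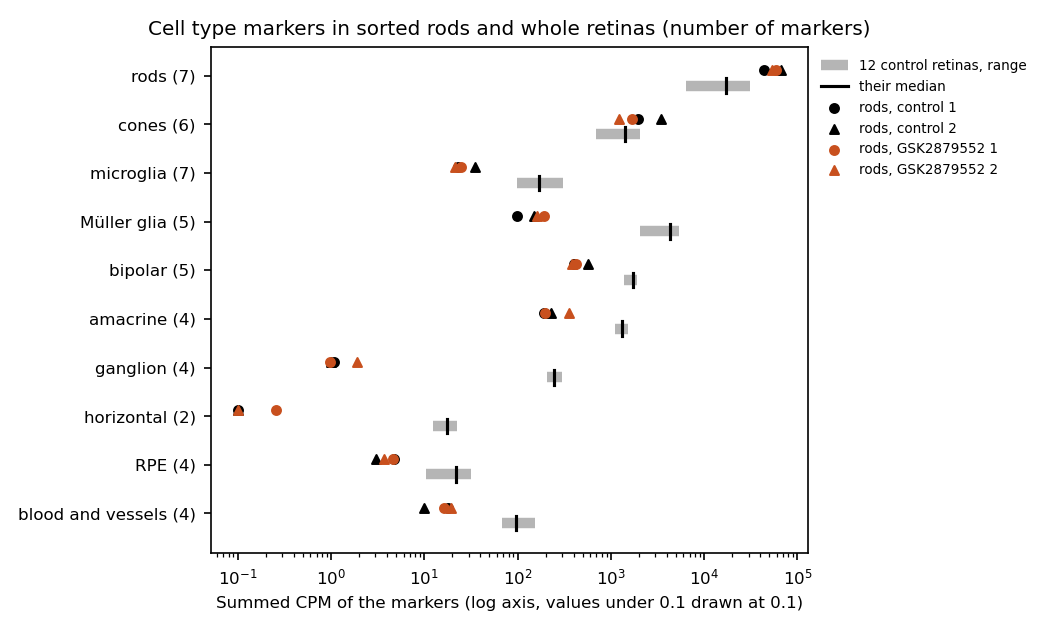
Summed level of the marker genes of each cell type (x axis, CPM on a log scale, sums under 0.1 drawn at 0.1). Points are the 2 control and 2 GSK2879552 rod libraries, grey bars the range over 12 control retinas and black ticks their median. Rod markers summed to between 43341 and 67206 CPM in sorted rods against 6371 to 31188 CPM in retinas, and the markers of Müller glia, microglia, bipolar, amacrine and ganglion cells lay below those of every retina.

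Kdm1a itself was at 28.2 and 21.3 CPM in control rods and 27.0 and 31.1 CPM in rods after GSK2879552, a log2 difference of 0.23 ± 0.27 (SE) with overlapping groups. The compound blocks the enzyme and not its transcript, so this level does not check the labels. Of the 17 tested genes of the LSD1 and CoREST complexes, 11 were higher and 6 lower, the median log2 difference was 0.10, and none reached an unadjusted p of 0.05. Rcor1, the CoREST scaffold, was at 12.3, 17.8, 9.52 and 11.8 CPM. The deacetylase Hdac1 was at 62.1, 88.1, 69.4 and 71.8 CPM. Neither difference exceeded the spread within the groups by the test. Among 19 tested neuronal genes with an RE1 element, the site through which REST recruits this complex, 8 were higher and 11 lower, with a median of -0.17, which was 0.18 without control 2 and 0.11 without GSK2879552 1.

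Edn2, the gene of a secreted stress peptide, had the smallest p of all genes. It fell from 165 and 99.0 CPM in controls to 25.0 and 20.8 CPM by the likelihood ratio test, and Selenbp1, the gene of a selenium-binding enzyme, rose from 7.49 and 14.1 CPM to 46.5 and 91.1 CPM. These calls hold with edgeR's likelihood ratio test and not with its quasi-likelihood F test, which also carries the uncertainty of each gene's own dispersion. By the F test 0 of 14478 genes passed an adjusted p of 0.05 with a log2 difference over 1 (0.0%), the smallest Benjamini-Hochberg adjusted p being 0.233 for Edn2. At an unadjusted p of 0.05 it passed 711 genes (4.91%), 403 higher (2.78%) and 308 lower (2.13%). A threshold of 0.05 passes about this share of genes when none differs, so the 711 are not a set of changed genes. The likelihood ratio test called 68 genes (0.47%), 44 of them higher (0.304%) and 24 lower (0.166%), without the fold threshold 46 were higher (0.318%) and 25 lower (0.173%), and DESeq2 called 27 higher and 15 lower, 40 of these 42 shared with the 68. Below, "called" refers to the likelihood ratio test at an adjusted p of 0.05, with the fold threshold unless stated. With 2 libraries against 2, an exact permutation test of a single gene cannot give a two-sided p below 0.333.

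**Figure D2:**
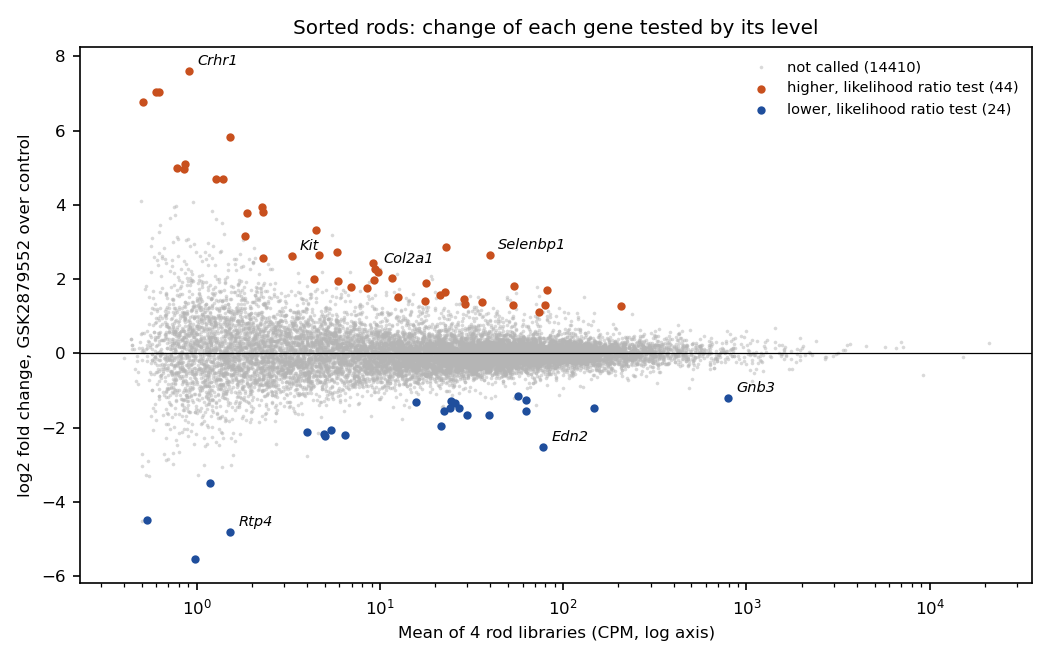
Mean level of each of the 14478 tested genes (x axis, CPM on a log scale) against its log2 difference, GSK2879552 minus control (y axis). The 44 genes called higher by the likelihood ratio test and the 24 called lower are coloured, and many of the higher ones lie at low levels. Fitted values of the 4 genes with no count in the controls, such as Crhr1, depend on the prior count and do not measure the size of the difference.

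In all 68 called genes both treated libraries lay on the same side of both controls, as they did in 33.2% of all tested genes. The median level of the higher genes went from 3.01 CPM in controls to 11.9 CPM, 17 of the 44 had a control mean under 1 CPM, beside 6.76% of all tested genes, and 4 had no count in either control. Such genes pass the count filter through their treated libraries and could only be higher, so this is a description of the calls. The lower genes started from a median of 34.3 CPM and went to 12.0 CPM. Single libraries weighed on these calls: without control 2 the likelihood ratio test gave 10 higher and 13 lower, without control 1 24 higher, and without GSK2879552 2 224 higher. Called whichever library was left out were Gm13112, Selenbp1, Tmem150b and Cnn2 on the higher side and Edn2 on the lower.

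The 10 genes that led the lower side included 3 secreted factors, a stress gene and a cone G protein. Edn2 (chr4:119833811-119839965, NCBIM37, plus strand) encodes endothelin-2, a peptide that injured photoreceptors release and that signals to Müller glia. The control libraries lay well above both treated libraries, with 132 ± 46.8 CPM (SD, n = 2) against 22.9 ± 2.95 (n = 2). The log2 difference was -2.52 ± 0.29 (SE, 95% interval -3.19 to -1.85), with an adjusted p of 0.233 by the quasi-likelihood test and 7.05e-10 by the likelihood ratio test. Btc, betacellulin, a ligand of the EGF receptor family, was at 101, 75.1, 39.1 and 34.3 CPM (log2 difference -1.26 ± 0.24). Pcolce, a secreted enhancer of procollagen C-terminal cleavage, was at 71.3, 47.9, 18.2 and 19.3 CPM (-1.67 ± 0.27). In each of these genes the 2 controls lay above the 2 treated libraries with a gap.

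Gadd45b, an early response gene of stress and DNA damage signalling, stood at 34.9 and 44.3 CPM in controls and at 14.0 and 14.4 CPM after treatment (-1.48 ± 0.27). Gnb3, the beta subunit of the cone transducin, was the most abundant of the 10, at 1104 and 1115 CPM against 520.2 and 445 CPM (-1.20 ± 0.21). Its replicates differed far less than its groups. Antxr2, a membrane receptor that binds collagen and anthrax toxin, was at 106, 82.7, 40.1 and 23.8 CPM (-1.55 ± 0.29). Prtg, protogenin, a cell surface protein of the immunoglobulin superfamily, was at 51.5, 39.9, 17.0 and 11.6 CPM (-1.66 ± 0.30). Nav1, a microtubule-associated neuron navigator, was at 83.2 and 72.8 CPM against 35.5 CPM in both treated libraries, and Mlf1 at 36.1, 37.9, 15.4 and 13.7 CPM.

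The remaining gene of the 10, the noncoding Gm12541, overlaps Fgf2 on the opposite strand. It was at 41.2, 27.3, 7.70 and 9.99 CPM (-1.95 ± 0.33). Fgf2, a growth factor that stressed photoreceptors make, was at 36.1, 26.1, 18.9 and 11.4 CPM (-1.02 ± 0.34) and was not called. The strand setting of the counting was not given in the sources used here, so that reads of the pair cannot be told apart. Each of the 10 genes passed in 4 to 7 of 12 other settings (other tests, scalings and filters, a replicate block and single libraries left out), with adjusted p between 9.02e-16 and 0.993. The likelihood ratio test, by which the 10 genes were chosen, is among these settings, and that pass was fixed in advance. Among the 12 tested genes of damage signalling from photoreceptors, Edn2 and Fgf2 among them, 5 were higher and 7 lower with a median of -0.26 (-0.08 without control 2). Lif, the gene of a cytokine that induces Edn2 in injured retina, had no count in any of the 4 libraries.

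On the higher side, Selenbp1, a selenium-binding methanethiol oxidase, was called whichever library was left out. Its log2 difference was 2.64 ± 0.41, with 10.8 ± 4.64 CPM (SD, n = 2) in controls and 68.8 ± 31.5 (n = 2) after GSK2879552, and an adjusted p of 8.69e-06 by the likelihood ratio test. Slc29a1, the equilibrative nucleoside transporter ENT1, was at 7.49, 7.61, 22.2 and 34.1 CPM (1.89 ± 0.33). It overlaps Gm17080 on the opposite strand, at 1.94 on the same scale. The enzyme gene 2810055F11Rik, now L3hypdh, acts on hydroxyproline, which collagen supplies, and was at 12.3, 9.72, 28.3 and 40.4 CPM (1.64 ± 0.31). In all 3 the treated libraries lay above the controls and differed from each other more than the controls did. The 3 collagens called higher, Col2a1, Col5a3 and Emid2, are given with their family below.

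Gm13112 and Ttc34 lie on opposite strands of the same stretch of chromosome 4. Gm13112 was at 6.55, 4.68, 25.9 and 54.9 CPM (2.86 ± 0.42). Ttc34, a protein of tetratricopeptide repeats, was at 3.61, 2.22, 13.7 and 17.3 CPM (2.44 ± 0.42). Tmem150b, a membrane protein whose gene overlaps Brsk1, was at 0.535, 0.995, 6.4 and 9.99 CPM (3.32 ± 0.57). Zfp839, a zinc finger protein, was at 1.61, 1.46, 13.2 and 7.17 CPM (2.74 ± 0.50). Of the 20 genes leading either side, 8 overlapped an opposite-strand gene with counts. As the strand setting is unknown, the reads of these pairs, Slc29a1 and Gm17080, Tmem150b and Brsk1, and Gm13112 and Ttc34 among them, cannot be told apart. The likelihood ratio test that chose the leading genes is again among the other settings, and that pass was fixed in advance. Each of the 10 higher genes passed in 5 to 7 of the other settings, 12 in all and 11 for Tmem150b, which the filter of 10 counts in every library removed, with adjusted p between 1.15e-13 and 0.993.

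**Figure D3:**
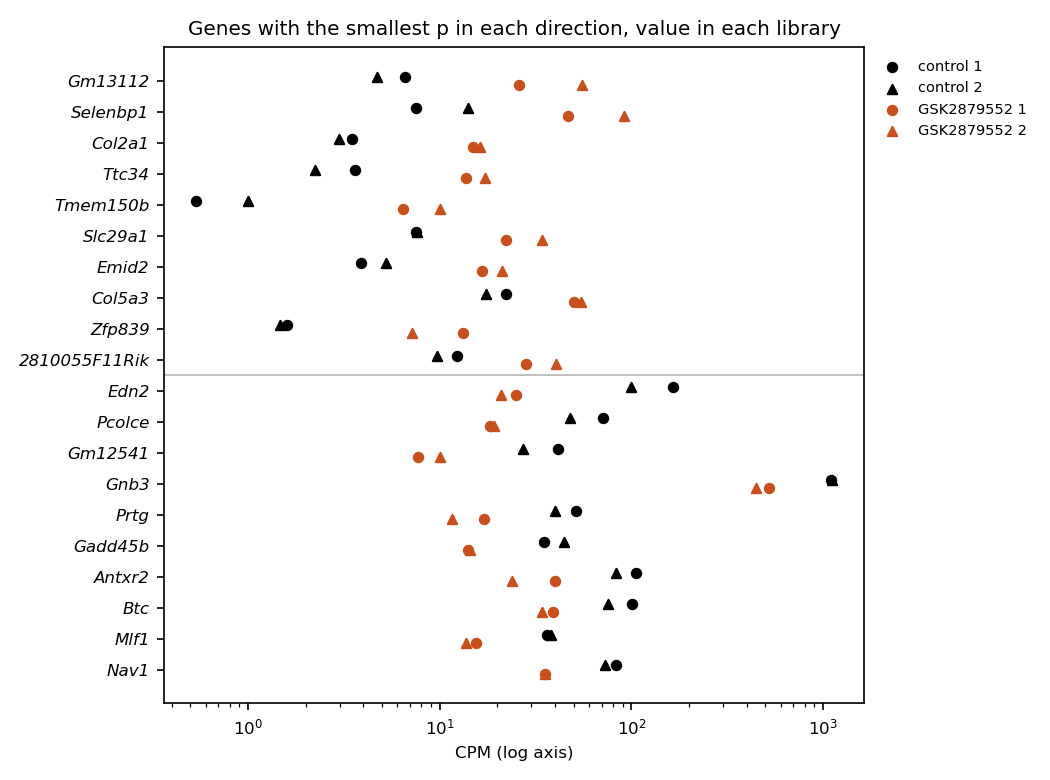
Level in each of the 4 rod libraries (CPM on a log scale) of the 10 genes leading the higher side, above the grey line, and the 10 leading the lower side. In every gene the 2 GSK2879552 libraries lie on 1 side of both controls, with Edn2 going from 165 and 99.0 CPM to 25.0 and 20.8 CPM.

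The study singled out 13 genes of this comparison, among them Edn2. Since they were chosen on these libraries, that all 13 had an unadjusted p under 0.05, 5 higher and 8 lower, is not independent evidence of their direction. Hk2, the hexokinase that starts glycolysis in photoreceptors, was at 256, 372, 560.2 and 507 CPM (0.76 ± 0.23, adjusted p 0.894 by the quasi-likelihood test and 0.306 by the likelihood ratio test). Rabgef1, an exchange factor of Rab5 needed in photoreceptors, was at 874, 705, 1072 and 1339 CPM. Kit, the receptor of stem cell factor, went from 0.803 and 0.995 CPM to 3.33 and 8.07 CPM (2.61 ± 0.66, adjusted p 0.0419 by the likelihood ratio test). On the lower side, E2f6, a repressor of cell cycle genes, was at 92.4, 58.3, 39.4 and 26.1 CPM (-1.19 ± 0.31). Wwtr1, the Hippo pathway coactivator TAZ, was at 61.3, 74.9, 39.3 and 39.0 CPM. Cd47, which restrains phagocytosis by microglia, was at 85.2, 98.7, 59.5 and 54.7 CPM. The groups did not overlap in any of these genes, but E2f6, Wwtr1, Cd47, Hk2 and Rabgef1 passed neither edgeR test. Under the other settings, 12 in all and 11 for Kit and Sstr2, adjusted p for the 13 lay between 9.02e-16 and 1.00.

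The genes that make a rod were centred near 0. Of 51 tested genes of rod phototransduction, the outer segment and the photoreceptor transcription factors, 28 were higher and 23 lower after GSK2879552, with a median log2 difference of 0.02 beside -0.01 over all 14478 genes and a range of -0.74 to 0.68. Not 1 of the 51 was called, and 15 had both treated libraries above both controls and 3 below, beside 15.9% and 17.3% of all tested genes. The rod transducin subunit Gnat1 was at 11732, 19545, 14783 and 14549 CPM, and arrestin (Sag) at 7588, 14429, 8606 and 6230 CPM. In both the spread between the 2 controls was as wide as the difference between groups or wider.

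Pde6b, the gene mutated in rd10, was at 6176 and 6260 CPM in controls and at 7779 and 7670 CPM after treatment, 0.31 ± 0.22 on the log2 scale (95% interval -0.19 to 0.82). The factor Nrl, which sets the rod fate, was at 577, 866, 854 and 694 CPM, and Crx, which activates most photoreceptor genes, at 1648, 2158, 1817 and 1922 CPM. Rorb, a nuclear receptor that acts upstream of Nrl, had the smallest p of the 51. It was at 1089.7 and 1103 CPM in controls and 1703 and 1802 CPM after treatment (0.68 ± 0.20, unadjusted p 0.00917, adjusted p 0.894 by the quasi-likelihood test). The 14 tested genes of the ribbon synapse, 7 higher and 7 lower, had a median of 0.02. Leaving out a control moved the median of the 21 phototransduction genes from 0.02 to -0.11 without control 1 and to 0.20 without control 2. In sorted cells a level says nothing of how many rods were left, and fewer cells of a type and less RNA per cell cannot be told apart.

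The same 51 genes were set beside whole rd10 retinas treated with inhibitors of EZH2, the methyltransferase of histone H3 lysine 27, from PN9 to PN24. UNC1999 was injected daily, as GSK2879552 was, and DZNep daily at first and then on alternate days at a lower dose. The median log2 difference of the 51 genes was 0.94 with DZNep (2 retinas against 4 controls, 51 of 51 higher) and 0.71 with UNC1999 (3 against 3, 49 of 51 higher). The test of the difference itself, rods minus retina in a fit of all 26 libraries, called 7 of the 51 lower in rods than with DZNep at an adjusted p of 0.05 (1.7% of 18385 genes were lower) and 1 of 51 lower than with UNC1999 (1.19%). With a difference over 1 on the log2 scale as well, 3.92% of genes differed from DZNep and 3.76% from UNC1999 in either direction. The 7 were Pdc, Cnga1, Pde6a, Tulp1, Impg2, Crx and Otx2, and the 1 was Tulp1, a protein of transport to the outer segment, at -0.88 with an adjusted p of 0.0499. Without control 1 the counts were 22 and 13, and without control 2 both were 0. Tissue, compound, for DZNep the dosing schedule, and possibly library kit differed together between the experiments and cannot be told apart.

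**Figure D4:**
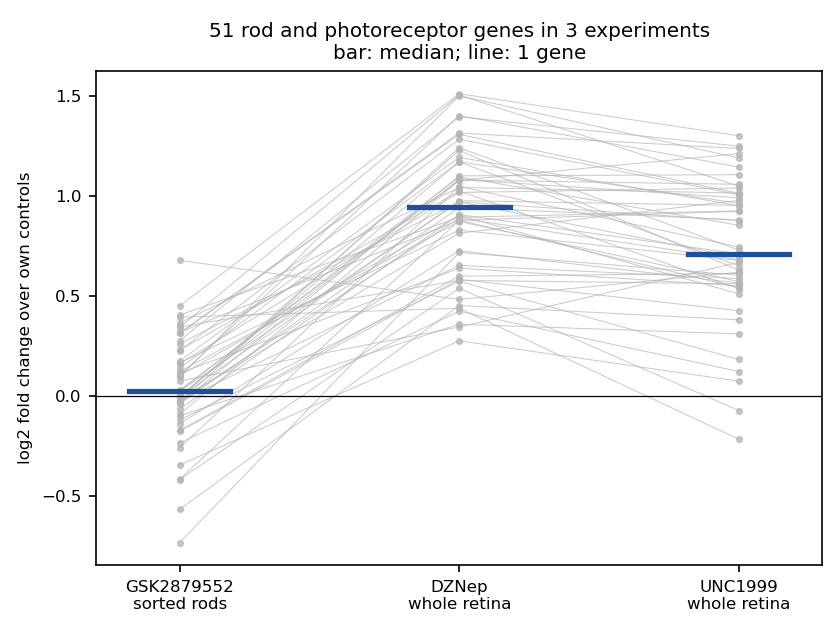
Log2 differences, treated minus control, of 51 genes of rod phototransduction, the outer segment and photoreceptor transcription factors in sorted rods after GSK2879552 and in whole retinas after DZNep and UNC1999. Each point is a gene, grey lines join the same gene and the bar is the median, 0.02 in rods, 0.94 with DZNep and 0.71 with UNC1999.

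Cone genes were lower in the rods of treated mice. Of 15 tested cone genes 14 were lower, with a median of -0.91, and 12 had both treated libraries below both controls, beside 17.3% of all genes. Unadjusted p-values by the quasi-likelihood test were under 0.05 for 10, all lower, beside 2.13% of all genes. Gnb3 and Pde6h, 2 of the 15, were called lower, beside 0.166% of all genes. Opn1sw, the short-wavelength opsin, was at 1074, 2042, 942 and 646 CPM (-0.97 ± 0.33). Pde6h, the inhibitory subunit of the cone phosphodiesterase, was at 137, 297, 90.8 and 66.2 CPM (-1.47 ± 0.35, adjusted p 0.663 by the quasi-likelihood test and 0.0267 by the likelihood ratio test). Pde6c, the catalytic subunit, was at 135, 199, 97.8 and 80.2 CPM. Control 2 was the highest library in all 3, and the treated libraries did not overlap the controls.

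Gnat2, the cone transducin, was at 203, 339.8, 196 and 149 CPM, and Slc24a2, the cone sodium-calcium exchanger, at 16.5, 22.5, 7.85 and 7.17 CPM. Thrb, the thyroid hormone receptor that sets the cone opsin pattern, was the only member not lower, at 240.5, 267, 268 and 248 CPM. The summed level of 6 cone markers was 1939 and 3430 CPM in control rods and 1695 and 1224 CPM after treatment, while the rod markers summed to 43341, 67206, 59531 and 52919 CPM. EGFP from the Nrl promoter marks rods, and reads of cones carried through the sort cannot be told apart from cone transcripts of the rods. Without control 2 the cone median was -0.53 and without control 1 -1.18. In a fit of all libraries, 5 of the 15 were lower in rods than with UNC1999 (Pde6h, Pde6c, Kcne2, Gngt2 and Slc24a2) and 1 lower than with DZNep (Cnga3). At the same adjusted p of 0.05, 1.19% of 18385 genes were lower than with UNC1999 and 1.7% lower than with DZNep. Adjusted p for Gnb3 and Pde6h lay between 3.70e-06 and 0.993 under the 12 other settings.

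Interferon-stimulated genes were low in rods and lower after GSK2879552. Of 24 tested genes 21 were lower, the median was -0.92, and 15 had both treated libraries below both controls, beside 17.3% of all genes. Of these genes 8 had an unadjusted p under 0.05 by the quasi-likelihood test and all 8 were lower, beside 2.13% of all genes. Irgm1, Usp18 and Rtp4 were called, 3 of the 24 and all lower, beside 0.166% of all genes. Promoters of many, but not all, interferon-stimulated genes carry the interferon-stimulated response element, at which Irf9 binds together with Stat2. Searched on both strands as GAAA, any 2 bases and GAAA, it was found in 12 of the 20 tested members with a promoter in RefSeq GRCm38.p6 (60%) and in 3.44% of all 32851 promoters of that length. The promoters of 3 members with an unadjusted p under 0.05 are printed to show it, each from 250 bases before to 50 after the gene's start. Capitals mark the element, which reads TTTC, any 2 bases and TTTC where it lies on the other strand. In Irgm1 a pair of elements overlaps, and capitals there also mark TGANTCA, the site of AP-1, and TAATCC, the site of CRX.
Irgm1, chr11:48871371-48871670, minus strand: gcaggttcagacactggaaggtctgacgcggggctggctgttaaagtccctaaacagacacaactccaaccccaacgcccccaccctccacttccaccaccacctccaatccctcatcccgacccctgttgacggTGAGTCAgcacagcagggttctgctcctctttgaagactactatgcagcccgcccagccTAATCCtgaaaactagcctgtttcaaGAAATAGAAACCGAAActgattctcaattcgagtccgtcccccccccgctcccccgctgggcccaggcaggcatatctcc
Ifit1, chr19:34640639-34640938, plus strand: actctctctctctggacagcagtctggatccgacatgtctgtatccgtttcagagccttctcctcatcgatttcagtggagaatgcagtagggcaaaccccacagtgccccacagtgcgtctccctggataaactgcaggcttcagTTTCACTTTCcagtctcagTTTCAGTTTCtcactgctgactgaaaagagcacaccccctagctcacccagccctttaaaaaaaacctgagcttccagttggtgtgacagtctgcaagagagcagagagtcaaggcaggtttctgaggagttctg
Ddx58, chr4:40239776-40240075, minus strand: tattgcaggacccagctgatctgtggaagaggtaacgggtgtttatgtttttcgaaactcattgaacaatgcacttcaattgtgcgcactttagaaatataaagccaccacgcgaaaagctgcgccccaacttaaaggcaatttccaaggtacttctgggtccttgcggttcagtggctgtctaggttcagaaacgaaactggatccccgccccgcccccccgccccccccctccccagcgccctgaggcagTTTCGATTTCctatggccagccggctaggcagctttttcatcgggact

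Irgm1, a GTPase that acts against intracellular pathogens, with its overlapping elements near the start, was at 6.82, 10.7, 2.70 and 1.41 CPM (-2.06 ± 0.51, adjusted p 0.687 by the quasi-likelihood test and 0.0409 by the likelihood ratio test). Ifit1, an RNA-binding effector with a pair of separate elements, was at 3.08, 10.9, 1.40 and 0.606 CPM, and Ddx58, the RNA sensor RIG-I with an element close to the start, at 8.16, 6.67, 4.21 and 2.72 CPM. In all 3 genes both treated libraries lay below both controls. A match of letters is a description and shows no binding in these cells.

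Usp18, which damps interferon signalling, was at 8.69, 7.67, 2.55 and 0.908 CPM (-2.18 ± 0.56). Rtp4, a receptor transporter induced by interferon, had 26 and 42 counts in controls and 3 and 0 after treatment, a ratio of 0.0372 after scaling with a 95% counting interval of 0.00748 to 0.113. Of 11 tested genes of antigen presentation 9 were lower, with a median of -0.48 (-0.22 without control 2). Among them B2m, the light chain of MHC class I, was at 7.89, 14.1, 4.21 and 4.54 CPM and the heavy chain H2-D1 at 64.1, 111, 60.5 and 45.5 CPM, neither of them called. The groups did not overlap in any of these 4 genes.

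Microglia, which also make interferon-stimulated and antigen presentation genes, left few reads. Their 7 markers summed to 23.1 and 34.7 CPM in controls and 24.8 and 21.2 CPM after treatment. The sums in control retinas ran from 98.4 to 307 CPM, and none of the 7 was at 0 in all 4 rod libraries. With factors from all 26 libraries, Csf1r alone was at 18.6 to 28.9 CPM in rods, of a sum of 23.7 to 37.4 CPM. The sum is therefore mostly a reading of Csf1r, at 0.351 times the retina median. P2ry12 was at 0.24 times that median and the remaining markers between 0.016 and 0.0756 times. Of 16 tested microglia genes 13 were lower, with a median of -0.44, and none had an unadjusted p under 0.05. Without control 2 that median was 0.12 and without control 1 -0.86. Their part in the interferon result was not tested. With at least 10 counts asked of every library the interferon median was -0.42, and without a single library it lay between -1.05 and -0.65. The 3 called genes had adjusted p between 0.000956 and 0.993 under the other settings, 12 for Irgm1 and 11 for Usp18 and Rtp4. The same 24 genes had medians of -0.79 with DZNep, -0.76 with UNC1999, -0.64 with UNC0642 and -0.91 with Romidepsin in whole retinas, and the test of the difference from DZNep or UNC1999 called none of them.

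Collagen genes were higher. Of 26 tested collagen chains 22 were higher and 4 lower, with a median of 0.63, and 15 had both treated libraries above both controls, beside 15.9% of all genes. The likelihood ratio test called 3 of the 26, all higher, beside 0.304% of all genes. Called were Col2a1, the chain of the fibrils of cartilage and vitreous, at 3.48, 2.99, 14.9 and 16.2 CPM (2.28 ± 0.37), Col5a3, which sits within fibrils, at 22.2, 17.5, 49.9 and 54.4 CPM (1.40 ± 0.25), and Emid2, now Col26a1, at 3.88, 5.21, 16.7 and 21.0 CPM (2.03 ± 0.36). The treated libraries of all 3 were close to each other and far from the controls. Col9a1, which joins type II fibrils, was at 8.16, 12.9, 21.1 and 23.8 CPM (1.07 ± 0.33) and was not called. The basement membrane chain Col4a1 went the other way, at 34.2, 29.6, 19.9 and 21.6 CPM (-0.62 ± 0.26), also not called. Among 15 tested genes of collagen processing only the lower Pcolce was called. The likelihood ratio test that called the 3 collagens is among the other settings, and that pass was fixed in advance. Col2a1, Col5a3 and Emid2 each passed in 6 of the 12 other settings, with adjusted p between 1.94e-05 and 0.993.

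The list of neuropeptides and their receptors held some genes with almost no reads in control rods. Of the 30 genes of this list 8 had enough counts to be tested, 6 were higher, and 4 were called, all higher, beside 0.304% of all genes. A gene that passes the count filter through its treated libraries had to be higher, so the count is a description. Crhr1, the receptor of corticotropin-releasing hormone, had 0 and 0 counts in controls and 25 and 23 after treatment, at least 13.5-fold higher against a floor of 3 counts over the 2 controls. Sstr2, the somatostatin receptor of the study's list, had 0, 0, 15 and 17 counts, at least 8.99-fold higher. Hcrtr1, an orexin receptor, was at 3.08, 3.86, 11.9 and 20.4 CPM (2.19 ± 0.42, adjusted p 0.0022 by the likelihood ratio test). Vip, the vasoactive intestinal peptide of an amacrine cell type, had 1, 1, 21 and 38 counts, a ratio of 24.9 with a 95% counting interval of 6.58 to 210.1. For these 4 adjusted p lay between 3.24e-06 and 0.993 under the other settings, 12 for Hcrtr1 and 11 for the other three, which the filter of 10 counts in every library removed.

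Amacrine cell genes lay on the same side. Of 13 listed 7 were tested and all 7 were higher, with a median of 1.06. The called genes were 2, Vip among them, beside 0.304% of all genes called higher. Vip passed the count filter through its treated libraries and could only be higher, so these counts are a description. Calb2, calretinin, was at 2.81, 2.99, 8.32 and 10.9 CPM. Pax6 was at 48.2, 77.2, 55.4 and 106 CPM, and the GABA-synthesizing Gad1 at 15.0, 29.6, 23.6 and 70.4 CPM, with overlapping groups. The 4 amacrine markers summed to 193, 229, 195 and 356 CPM, against 1103 to 1527 CPM in control retinas, so that GSK2879552 2 alone stood above the controls. Without GSK2879552 2 the amacrine median was 0.07, and without GSK2879552 1 it was 1.58. The part of amacrine cells carried through the sort in these results was not tested.

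Müller glia genes were also higher, 11 of 13 tested with a median of 0.49 (0.81 without control 2) and none called, 8 of them with both treated libraries above both controls, beside 15.9% of all genes. Their 5 markers summed to 98.2 and 151 CPM in controls and 193 and 160.2 CPM after treatment. Dkk3, a secreted Wnt modulator, was at 86.3, 118, 169 and 206 CPM (0.87 ± 0.23). Genes of gliosis had a median of -0.51 over 10 tested, but between -0.24 and -0.23 without control 1, control 2 or GSK2879552 1, Gfap among them at 4.82, 2.75, 1.35 and 2.02 CPM. Of 14 tested bipolar genes 13 were lower with a median of -0.30, and all 8 tested genes of blood and vessels were higher with a median of 0.55. None of these was called, and without control 2 the bipolar median was 0.15.

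**Figure D5:**
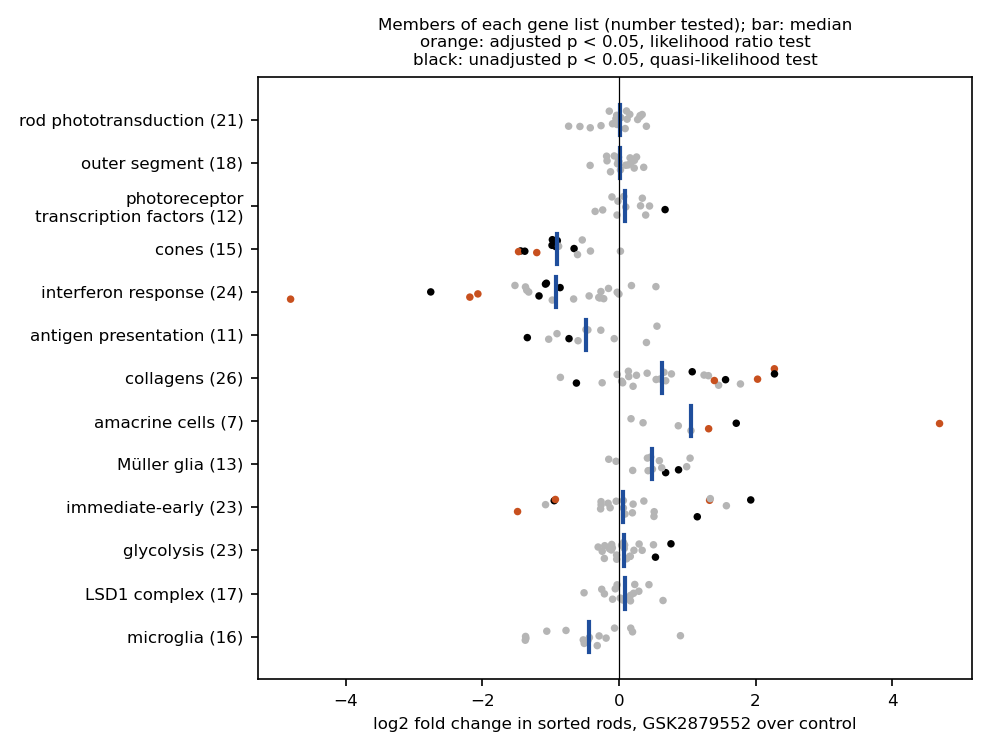
Log2 differences, GSK2879552 minus control, of the tested members of each gene list, a point per gene and a bar at the median. Orange points passed an adjusted p of 0.05 by the likelihood ratio test, and black points an unadjusted p of 0.05 by the quasi-likelihood test. Cone genes (median -0.91) and interferon-stimulated genes (-0.92) lie mostly below 0, collagens (0.63) and amacrine genes (1.06) above it, and the rod lists (0.01 to 0.09) around it.

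Immediate-early and stress-induced genes were split. Of 23 tested, 13 were higher and 10 lower with a median of 0.07. At an adjusted p of 0.05 by the likelihood ratio test, without the fold threshold, 1 was called higher and 2 lower. Over all genes these shares were 0.318% and 0.173%. Dusp1, the phosphatase that ends MAP kinase signals, was higher, at 19.7, 13.8, 44.5 and 38.9 CPM (1.33 ± 0.28, adjusted p 0.0197). Sgk1, a kinase induced by glucocorticoids and osmotic stress, was lower, at 606, 663, 329 and 338 CPM (-0.93 ± 0.20, adjusted p 0.0238, short of the fold threshold), as was Gadd45b above. Fos, of the AP-1 factor, was at 24.5, 18.2, 36.3 and 58.0 CPM, and Atf3, of the integrated stress response, at 22.3, 28.5, 13.8 and 12.6 CPM, with groups apart in opposite directions. The largest log2 difference of the list was 1.93. The difference of Jund ran from -0.00092 to 2.71 with single libraries left out, so it depended on the libraries used. Dusp1, Sgk1 and Gadd45b had adjusted p between 2.46e-06 and 0.993 under the 12 other settings.

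Lists of cell death, metabolism and stress held no called gene. Of 18 tested genes of cell death 8 were higher and 10 lower. Of 23 glycolysis genes 13 were higher and 10 lower with a median of 0.07, Hk2 and Pfkp, a phosphofructokinase at 684, 644, 907 and 1018 CPM, having unadjusted p-values under 0.05. That median was -0.30 without control 1 and 0.43 without control 2. Antioxidant genes were lower in 13 of 15 with a median of -0.38. Of these 15, 5 had both treated libraries below both controls and 1 above, beside 17.3% and 15.9% of all genes. Genes of the unfolded protein and heat responses were lower in 12 of 15 with a median of -0.31. Among them 8 of the 15 had both treated libraries below both controls and 2 above. The largest difference was that of Chac1, which degrades glutathione, with 7, 46, 7 and 4 counts (-2.27 ± 0.92, unadjusted p 0.0371). Asns, which makes asparagine and answers to amino acid stress, was at 24.5, 39.3, 18.1 and 17.3 CPM. Without control 2 the medians of the antioxidant and stress genes were -0.09 and -0.05.

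Where the genes called in rods were tested in retinas treated with other inhibitors, the lower ones were mostly lower with DZNep, UNC1999 and UNC0642 too. Most of these differences did not pass an adjusted p of 0.05. Of 23 with a value, 19 were lower with DZNep, 19 with UNC1999, 18 with the G9a inhibitor UNC0642 and 11 with the histone deacetylase inhibitor Romidepsin. Among all genes tested in rods, 53.9%, 51.8%, 50.7% and 50.2% were higher in the same order. At an adjusted p of 0.05 by the quasi-likelihood test, 7 were lower and 2 higher with DZNep. With UNC1999 and UNC0642 0 passed in either direction, and with Romidepsin 0 were lower and 1 higher. Edn2 had log2 differences of -0.85 with DZNep, -0.99 with UNC1999 and 0.89 with Romidepsin, and its change in rods lay below that with DZNep by -1.57 (adjusted p 0.0439, quasi-likelihood test of the difference). Gadd45b, 0.55 with DZNep, differed by -1.96 (adjusted p 0.0179) and from UNC1999 by -1.60 (adjusted p 0.0492). The higher genes were split, with 19 of 40 higher with DZNep and 22 of 39 with UNC1999, 14 of 39 with UNC0642 and 16 of 38 with Romidepsin, where 53.9%, 51.8%, 50.7% and 50.2% of all genes tested in rods were. Selenbp1 was higher with both DZNep, at 1.65 (adjusted p 0.000196), and UNC1999, at 1.13 (adjusted p 0.0471). At an adjusted p of 0.05 by the quasi-likelihood test, 10 of the genes called higher in rods were higher and 6 lower with DZNep. With UNC1999 and with Romidepsin 1 was higher and 0 lower, and with UNC0642 0 passed. The share of all genes passing at this threshold in the retina experiments is not given here, so the counts for both sides are a description. These experiments share no library with the rods.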

How the data were processed

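RNA of FACS-sorted EGFP rods was sequenced in 2 control and 2 GSK2879552 libraries. Per the methods and the submitters' processing notes, the authors trimmed reads with BBDuk, aligned them with HISAT2 2.2.1 to NCBIM37 (mm9) and counted them with HTSeq 0.11.2 over Ensembl release 67; the deposited values are whole, unnormalized read counts of 37991 genes in 26 libraries. The labels name a stranded Illumina kit for all libraries and the methods a SMART-Seq kit for rods, and the strand setting of the counting was not given in the sources used here. From the counts, edgeR 4.0.16 in R 4.3.3 was run on the 4 rod libraries (filterByExpr, TMM scaling, quasi-likelihood F test, Benjamini-Hochberg adjustment over 14478 genes, call at adjusted p 0.05 and absolute log2 difference above 1). DESeq2 1.42.0 and edgeR's likelihood ratio test (the choice of the methods) were alternatives, as were another scaling, filter, block and set of libraries. Differences from the DZNep and UNC1999 experiments were contrasts in a fit of all 26 libraries. The code was tested on simulated data.

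Genes named were the 10 per direction with the smallest p among those that the likelihood ratio test called with groups apart, the genes the study singled out, and in each list the called members, the 4 most abundant and the 2 with the largest difference. Any others, such as Gm12541's neighbour Fgf2 or the marker genes, were named for their role or after their values were seen, and a few members are not reported here. The members and the 30 gene lists were chosen with earlier results of these data known. The labels call the samples biological replicates without naming animals, so p-values measure only the spread between these samples, which may be partly technical. Counting intervals and floors cover counting error only. Gene coordinates are NCBIM37; promoters are from RefSeq GRCm38.p6, where 52 of the 68 called genes were matched by symbol.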

Additional observations from a re-analysis of the deposited data

Results flagged for a closer look

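The change with GSK2879552 in rods was tested against the change with DZNep and with UNC1999 in whole retinas, by edgeR's quasi-likelihood test of the difference over 18385 genes. At an adjusted p of 0.05 and a log2 difference over 1, 721 genes differed from DZNep (3.92%) and 692 from UNC1999 (3.76%). At an adjusted p of 0.05 alone, 7 of the 51 rod genes were lower than with DZNep (1.7% of all genes) and 1, Tulp1, lower than with UNC1999 (1.19%). Edn2 differed from DZNep by -1.57 on the log2 scale, and Pde6h differed from UNC1999 by -1.46. Gadd45b differed by -1.96 from DZNep and by -1.60 from UNC1999, Kit by 2.76 and 2.42, and Sstr2 by 7.62 and 7.67, the last with no count in the control rods, so that its fitted size depends on the prior count. Tissue, compound, for DZNep the dosing schedule, and possibly library kit differ together between these experiments and cannot be told apart. No library is shared between them. With 2 to 4 libraries a group, no group of the rods was large enough to test a library for standing apart.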

How the results depend on the processing

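By the quasi-likelihood test no gene passed, and the counts of genes called higher and lower were also 0 and 0 with the newer quasi-likelihood method, with DESeq2's size factors, with at least 10 counts asked of every library and without the fold threshold. They were 44 and 24 with the likelihood ratio test, 27 and 15 with DESeq2, 130 and 38 with no filter on low counts, and 658 and 260 in a fit of all 26 libraries, which takes the spread mostly from retinas. With a single library left out they lay between 0 and 192 higher and between 0 and 18 lower, reaching 192 without GSK2879552 2. The likelihood ratio test then gave 10 to 224 higher and 13 to 25 lower. A remaining single library is assumed to vary like the other group. The cause of these differences between tests was not tested.

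Replicate numbers did not pair the libraries, the deviations of same-numbered libraries correlating at -0.0788. With the replicate block the quasi-likelihood test called 2 higher and 1 lower and the likelihood ratio test 37 and 15.

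The list members called, 0 in all, were 18 with the likelihood ratio test, 13 with DESeq2, 30 without a filter, 1 with the replicate block, 50 with all libraries and 0 to 16 without a library. The named genes called, also 0, were 24, 21, 24, 3, 24 and 0 to 17 in the same order. Genes that differed from DZNep went from 721 to 1192 with the likelihood ratio test, 338 with at least 10 counts and 672 to 1218 without a library, and the 7 rod genes to 18 and 0 to 22. For UNC1999 the 692 genes went to 1162, 284 and 638 to 1203, and the 1 rod gene to 3 and 0 to 13.

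Of the log2 differences of 74 genes, 6 genes changed sign somewhere. Crx was 0.046 with all libraries, and Nr2e3 0.00015 with at least 10 counts and 0.059 with all libraries. Without a library the ranges were -0.21 to 0.18 for Crx, -0.21 to 0.21 for Nr2e3, -0.00092 to 2.71 for Jund, -0.42 to 0.32 for Gnat1, -0.064 to 0.45 for Prph2 and -0.28 to 0.35 for Rom1. Of 348 recomputed list medians, 295 moved by less than the spread between replicate libraries and 53 by more. At the depth of control 1, levels under 0.412 CPM rest on fewer than 3 counts.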
